A study of Mus musculus with 9 samples.

Results

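The genes described are 5 growth factor genes, Fgf2, Fgf7, Fgf10, Hgf and Igf1, of the 84 wound healing genes on the PCR array. They were chosen as growth factors that stromal cells make and that act on epithelium, with earlier results of these data known, and all 5 gave a threshold cycle in all 9 arrays. Colon RNA came from C57BL/6 female mice of 8 to 9 weeks. Untreated mice (UN) drank regular water, DSS mice drank 3% dextran sodium sulphate, which injures the colonic epithelium and causes an acute colitis, and DSS+DPG mice drank 3% DSS and were given dipotassium glycyrrhizate (DPG, a salt of the licorice compound glycyrrhizic acid and an inhibitor of HMGB1) by oral gavage at 8 mg/kg/day. All mice were killed after 7 days. The RNA of 5 mice was pooled for each of the 3 groups and each pool was run on 3 arrays, so that the 3 arrays of a group were repeats of 1 RNA pool. All p-values therefore rest on technical repeats of a pool, and differences from mouse to mouse were not measured.

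Growth factors of this kind carry signals from the connective tissue of the mucosa to the epithelium above it. Fgf7, also named keratinocyte growth factor, and Fgf10 are made by mesenchymal cells and bind the epithelial splice form of the FGF receptor Fgfr2, through which they drive growth and migration of epithelial cells. Fgf2, basic fibroblast growth factor, acts on fibroblasts and endothelial cells as well as on epithelium and is known for the growth of new vessels in healing wounds. Hgf is made by mesenchymal cells and also by blood-derived cells such as neutrophils and macrophages, and acts on epithelium through the receptor Met. Igf1 comes from fibroblasts, smooth muscle and macrophages in the gut, as well as from the liver, and acts through Igf1r. None of these receptor genes is on the panel, so only the ligand side was measured.

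In the mouse genome (build GRCm38.p6, RefSeq annotation) the 5 genes lie on 5 different chromosomes, Fgf2 at chr3:37348477-37410106, Fgf7 at chr2:126034658-126091185, Fgf10 at chr13:118714699-118792573, Hgf at chr5:16553495-16619439 and Igf1 at chr10:87858265-87937047. Because Fgf7 and Fgf10 moved far from Hgf in the comparisons below, the 250 bases before the outermost annotated start of these 3 genes are shown 5′ to 3′ on the plus strand, which is the strand of each gene. Capitals mark a match to one of 6 short promoter motifs searched on both strands, namely AP-1 (TGANTCA), STAT (TTCNNNGAA), NF-kB (GGG, any 2 bases and TTTCC), the GC box (GGGCGG), the CCAAT box (CCAAT) and the TATA box (TATAAA).
Fgf7 (chr2:126034408-126034657): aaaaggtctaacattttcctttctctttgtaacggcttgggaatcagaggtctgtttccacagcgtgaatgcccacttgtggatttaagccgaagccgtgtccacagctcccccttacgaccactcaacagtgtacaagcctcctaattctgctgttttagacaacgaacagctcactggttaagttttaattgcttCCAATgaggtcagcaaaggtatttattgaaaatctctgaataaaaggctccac
Fgf10 (chr13:118714449-118714698): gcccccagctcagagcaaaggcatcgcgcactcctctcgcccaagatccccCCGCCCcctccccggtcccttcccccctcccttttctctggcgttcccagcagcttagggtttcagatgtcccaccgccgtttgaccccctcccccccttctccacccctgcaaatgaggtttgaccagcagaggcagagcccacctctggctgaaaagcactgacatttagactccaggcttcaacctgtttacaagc
Hgf (chr5:16553245-16553494): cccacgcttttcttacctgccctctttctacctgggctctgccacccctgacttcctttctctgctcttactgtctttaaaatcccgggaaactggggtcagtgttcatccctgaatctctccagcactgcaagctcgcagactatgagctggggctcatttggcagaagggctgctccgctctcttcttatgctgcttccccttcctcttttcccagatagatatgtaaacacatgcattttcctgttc

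The 3 windows differed in their matches. The Fgf7 window held 1 CCAAT box, from base -53 to base -49 before the start, and 43.6% of its bases were G or C. The Fgf10 window was richer in G and C, at 61.2%, and held 1 GC box, from -199 to -194, read on the minus strand. The Hgf window, at 50.8% G and C, held no match to any of the 6 motifs. A window of the same length before the start of Fgf2 held 1 GC box from -49 to -44, and that of Igf1 held an AP-1 match from -37 to -31 and a CCAAT box from -142 to -138, both in windows that overlap another annotated transcript of the gene and are therefore not printed. Among 32841 mouse promoter windows of this length in the RefSeq table, 33.9% held a CCAAT box, 32.7% a GC box, 12.4% a TATA box, 7.02% the STAT letters, 6.75% AP-1 and 1.41% NF-kB. These matches describe the letters of the windows, and binding was not measured.

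The measured value was the threshold cycle (Ct), the PCR cycle at which the product of a well passes a set fluorescence. It is a log2 scale on which a Ct that is 1 cycle earlier stands for 2 times the template where amplification is complete. Over the 9 arrays the Ct of the 5 genes lay between 25.72 and 32.88, all under the limit of 38 cycles that was set for wells without a signal. The median SD of the Ct of a panel gene over the 3 arrays was 0.052 cycles in UN, 0.059 in the DSS arrays and 0.065 in those of DSS+DPG. Delta Ct is the Ct of a gene less the mean Ct of 5 reference genes on the same array (Actb, B2m, Gapdh, Gusb and Hsp90ab1), and log2 fold changes are differences in minus delta Ct. Since each primer pair has its own efficiency, no level was set against that of another gene.

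The reference itself came later in DSS+DPG. Its mean Ct was 22.00 for UN, 22.23 for DSS and 23.44 for DSS+DPG, and the arrays of each group lay apart from those of the others (two-sided p = 0.1 in an exact permutation test, which cannot go lower with 3 arrays against 3). Between UN and DSS single reference genes moved in opposite directions, from 1.1 cycles earlier in DSS (B2m) to 1.08 cycles later (Hsp90ab1). Relative to DSS, the reference genes came later in DSS+DPG by between 0.39 cycles (Hsp90ab1) and 1.71 cycles (B2m), while the control wells of reverse transcription came 0.23 cycles earlier. The median Ct of the 84 panel genes was 27.84 to 27.89 in the UN arrays, 26.57 to 26.77 in the DSS arrays and 29.60 to 29.69 in the DSS+DPG arrays. The panel as a whole thus moved with each group, and each change of a growth factor gene is given below with the shift of the panel beside it.

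Fgf7, the keratinocyte growth factor, had Ct values of 27.46, 27.44 and 27.45 in the UN arrays, of 25.78, 25.72 and 25.77 in the DSS arrays, and of 30.78, 31.15 and 31.01 in the DSS+DPG arrays. The 3 groups did not overlap, with DSS earliest and DSS+DPG latest. The mean delta Ct was 5.45 ± 0.019 (SD, n = 3 arrays) in UN, 3.53 ± 0.051 with DSS and 7.54 ± 0.20 with DSS and DPG.

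Fgf10, its close relative and a ligand of the same receptor form, had Ct values of 28.52, 28.21 and 28.32 in UN, of 27.58, 27.39 and 27.42 in DSS, and of 31.58, 32.14 and 32.03 in DSS+DPG. The order of the groups was that of Fgf7, with a smaller step between UN and DSS and the widest spread of the 5 genes among the DSS+DPG arrays, where array 1 lay apart from the other two. Its mean delta Ct was 6.35 ± 0.16 for UN, 5.23 ± 0.032 for DSS and 8.48 ± 0.31 for DSS+DPG.

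Fgf2 had Ct values of 29.39, 29.31 and 29.36 in UN, of 27.57, 27.48 and 27.68 in DSS, and of 32.88, 32.59 and 32.71 in DSS+DPG, the latest Ct of any of the 5 genes. Again no array of one group reached the range of another. The mean delta Ct was 7.35 ± 0.044 for UN, 5.35 ± 0.11 for DSS and 9.29 ± 0.14 for DSS+DPG.

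Hgf stood apart in the third group. Its Ct values were 28.73, 28.87 and 28.81 in UN, 26.67, 26.53 and 26.61 in DSS, and 28.65, 28.86 and 28.77 in DSS+DPG. Before any reference was applied, the DSS+DPG arrays thus overlapped the UN arrays, although the reference genes of the same arrays came 1.44 cycles later than in UN. After the reference was subtracted, the mean delta Ct was 6.80 ± 0.068 for UN, 4.37 ± 0.019 for DSS and 5.32 ± 0.12 for DSS+DPG, so that DSS+DPG lay between the other groups.

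Igf1 had Ct values of 26.88, 26.83 and 26.84 in UN, of 25.93, 25.82 and 25.88 in DSS, and of 28.73, 28.61 and 28.68 in DSS+DPG. Its groups lay apart with little spread. The mean delta Ct of Igf1 was 4.85 ± 0.036 for UN, 3.65 ± 0.025 for DSS and 5.23 ± 0.050 for DSS+DPG, the smallest distance between UN and DSS+DPG among the 5 genes.

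A supplementary workbook of the study holds raw Ct for arrays 1 and 2 of each group. For the 5 genes these are the deposited Ct except in 3 places, namely Fgf2 and Fgf7 in DSS and Hgf in DSS+DPG. In each of these the workbook is later, by the same shift in both arrays. With the workbook values the rise of Fgf2 and Fgf7 with DSS and their fall with DPG would be smaller, and the level of Hgf in DSS+DPG lower, while the direction of all 5 genes in all 3 comparisons would be the same, with no overlap between arrays 1 and 2 of the groups. Some differences between genes would change, and these are named where they are given. The deposited values were used throughout, and which of the 2 sets is right was not tested.

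**Figure D1:**
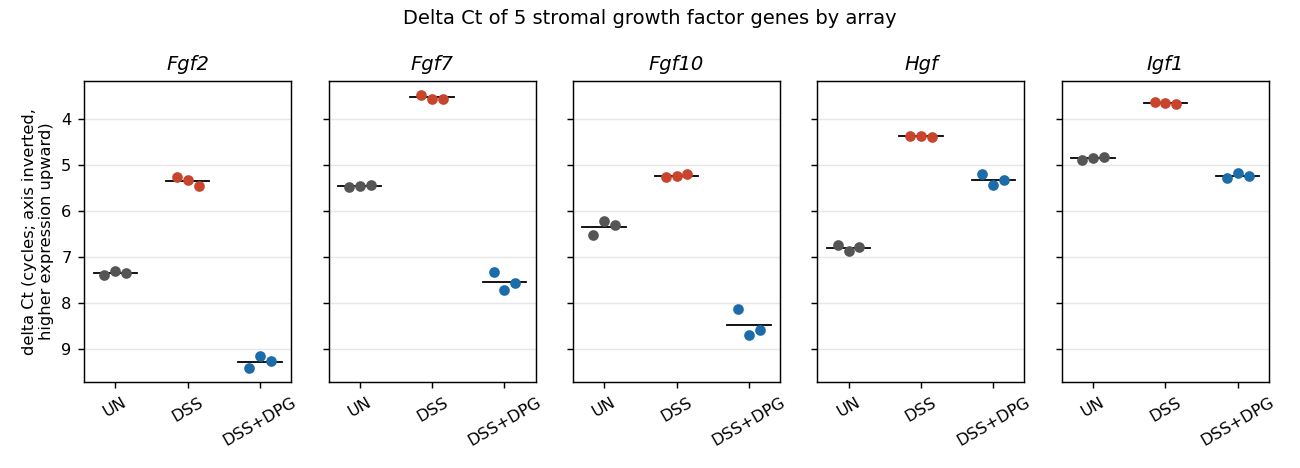
Delta Ct in cycles (inverted axis, higher expression upward) of each of the 5 genes in each of the 9 arrays, with UN in grey, DSS in red and DSS+DPG in blue; points are arrays 1 to 3 from left to right and the line is the mean of 3 arrays. In all 5 panels the DSS arrays are highest, and the DSS+DPG arrays lie below the UN arrays in every panel except that of Hgf.

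The first comparison asked which of these genes respond to the colitis. All 5 were higher in DSS than in UN with no overlap between arrays, as were 63.1% of the 84 panel genes, and all 5 rose in the test (limma over all 9 arrays, Benjamini-Hochberg adjustment over the panel, adjusted p under 0.05), in which 61.9% of the panel rose. The median log2 fold change of the 5 genes was 1.92, beside 0.71 over the panel. Hgf rose most, 5.39-fold (log2 fold change 2.43, standard error 0.062, limma adjusted p = 5.40e-09), and ranked 19 from the top of the 84 genes. Fgf2 rose 4.02-fold (log2 fold change 2.01, standard error 0.079, limma adjusted p = 6.42e-08) and Fgf7 rose 3.79-fold (1.92, standard error 0.090, limma adjusted p = 1.59e-07), at ranks 20 and 21. The other 2 genes rose less and stood near the middle of the panel. With the workbook Ct of arrays 1 and 2, however, Igf1 would rise more than Fgf7, and Fgf10 relative to Fgf7 would overlap between the groups. Igf1 rose 2.30-fold (1.20, standard error 0.036, limma adjusted p = 1.25e-08) and Fgf10 rose 2.17-fold (1.12, standard error 0.15, limma adjusted p = 0.000165), at ranks 32 and 33.

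The panel's own shift bears on Igf1 and Fgf10. Set against the median Ct of the panel in place of the reference genes, Hgf stayed higher in DSS by 0.99 on the log2 scale, Fgf2 by 0.56 and Fgf7 by 0.48. On the same scale Igf1 was lower (log2 fold change -0.24, limma adjusted p = 0.00151) and Fgf10 was not called (-0.33, limma adjusted p = 0.0621).

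The second comparison asked how co-treatment with DPG changed the expression seen in colitis. All 5 genes fell in the test with no overlap between arrays, and 76.2% of the 84 panel genes did so by either measure. The 5 genes had a median log2 fold change of -3.24, beside -1.30 over the panel. The 3 FGF genes fell most. Fgf7 was 16.2-fold lower (log2 fold change -4.01, standard error 0.090, limma adjusted p = 1.75e-09) and Fgf2 15.4-fold lower (-3.94, standard error 0.079, limma adjusted p = 1.60e-09), at ranks 8 and 9 from the lowest of the 84 genes. Fgf10 was 9.47-fold lower (-3.24, standard error 0.15, limma adjusted p = 1.42e-07), at rank 13. Igf1 and Hgf fell less and lay within the middle of the panel. Their order rests on the deposited Ct, since with the workbook Ct of arrays 1 and 2 Hgf would fall by more than Igf1. Igf1 was 3.00-fold lower (-1.59, standard error 0.036, limma adjusted p = 1.86e-09), at rank 37 from the lowest, and Hgf 1.93-fold lower (-0.95, standard error 0.062, limma adjusted p = 1.37e-06), at rank 50.

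Relative to the panel median, the FGF genes kept a fall of smaller size, with log2 fold changes of -2.24 for Fgf7, -2.17 for Fgf2 and -1.47 for Fgf10. Hgf and Igf1 changed direction on that scale, to 0.83 (limma adjusted p = 6.97e-06) and 0.19 (limma adjusted p = 0.00677). The panel median is not a neutral reference, since 76.2% of the panel fell. A positive value here means that the Ct of the gene moved later by less than that median did. On the reference-gene scale only Hgf of the 5 fell by less than the median gene of the panel (-0.95 beside -1.30). The Hgf values on both scales use the deposited Ct. With the workbook Ct of arrays 1 and 2, Hgf would fall by more than Igf1 on either scale.

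**Figure D2:**
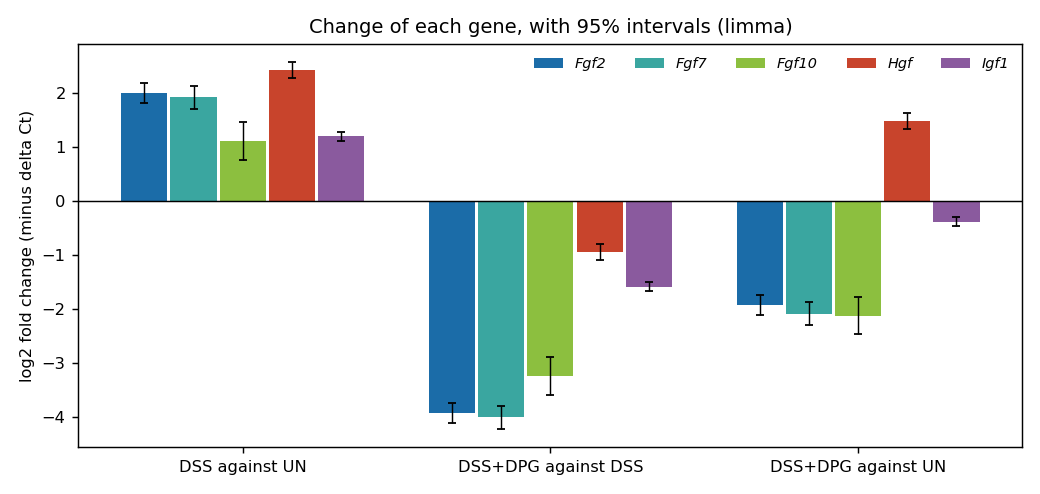
Log2 fold change (minus delta Ct) of the 5 genes in the 3 comparisons, as bars from 0 with 95% confidence intervals from limma. All bars point up in DSS against UN and down in DSS+DPG against DSS, and in DSS+DPG against UN the bar of Hgf alone points up, at 1.48.

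The third comparison set the co-treated mice against untreated mice, and here the genes parted. The 3 FGF genes and Igf1 were lower than in UN with no overlap between arrays and fell in the test, where 69.5% of 82 panel genes did so by either measure. Hgf was higher with no overlap, as were 24.4% of the panel, and rose in the test, as 22% did. This comparison shares its UN arrays with the first and its DSS+DPG arrays with the second, so it is not independent of them. Fgf10 was 4.37-fold lower than in untreated mice (-2.13 on the log2 scale, standard error 0.15, limma adjusted p = 2.36e-06), Fgf7 4.26-fold lower (-2.09, standard error 0.089, limma adjusted p = 1.13e-07) and Fgf2 3.82-fold lower (-1.93, standard error 0.079, limma adjusted p = 9.53e-08). They took ranks 4, 5 and 10 from the lowest of the 82 genes, beside a panel median of -0.69. Igf1 was 1.30-fold lower (-0.38, standard error 0.036, limma adjusted p = 1.45e-05), at rank 52 from the lowest, so its fall was smaller than that of the median gene. Hgf was 2.80-fold higher (1.48, standard error 0.061, limma adjusted p = 1.02e-07), at rank 12 from the highest.

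The sizes of the Hgf and Igf1 changes rest on the reference. With raw Ct and no reference, Hgf in DSS+DPG exceeded UN by 0.043 on the log2 scale (limma adjusted p = 0.543), while relative to the panel median it exceeded UN by 1.81. The call of Igf1 was lost with Gapdh as the single reference (-0.057, limma adjusted p = 0.331) and with the panel median (-0.055, limma adjusted p = 0.301). Over 11 choices of reference the FGF genes stayed lower, between -3.57 and -1.61.

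**Figure D3:**
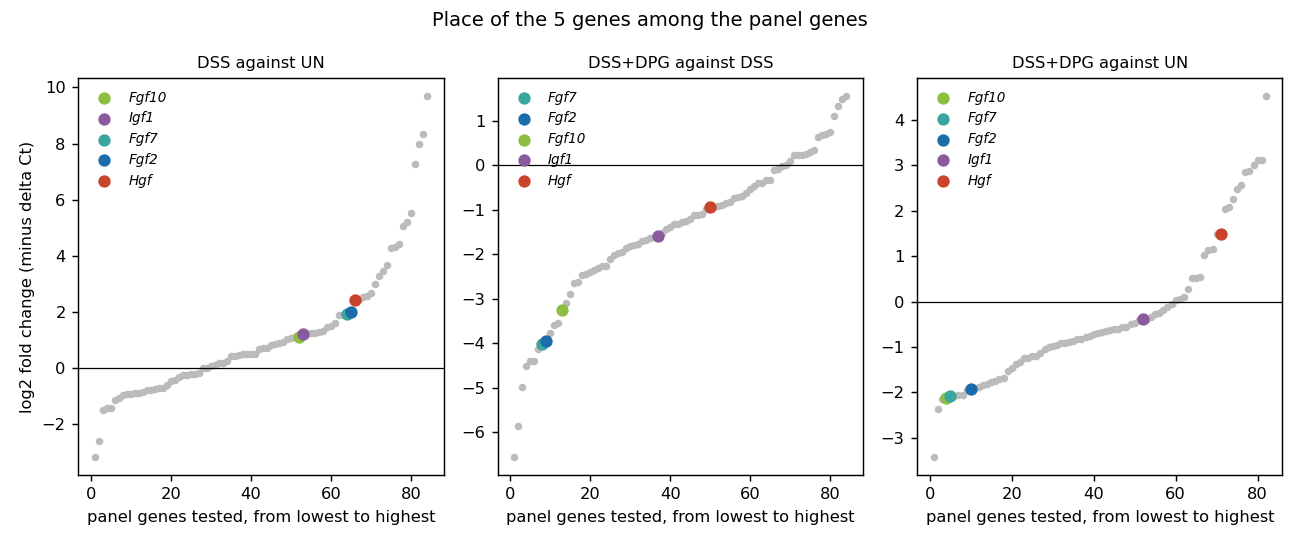
Log2 fold change of each panel gene, ordered from lowest to highest, in the 3 comparisons (84, 84 and 82 genes; the vertical scales differ), with the 5 genes in colour and all others in grey. Fgf7, Fgf2 and Fgf10 lie near the low end of both comparisons with DSS+DPG, and Hgf lies in the upper part in DSS against UN and in DSS+DPG against UN.

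The order of the genes within an array needs no reference, and it was tested as the difference in Ct between 2 genes of the same array. All pairs of panel genes were fitted with limma and adjusted together (3486 pairs in each comparison with DSS and 3321 in DSS+DPG against UN). Of the 10 pairs among the 5 genes, 8 changed in DSS against UN, 9 in DSS+DPG against DSS and 7 in DSS+DPG against UN, where 87.4%, 87% and 84.8% of all pairs changed, so these counts are close to the background. The pairs share genes and are not independent.

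With DSS, the balance moved toward Hgf. Relative to Igf1 in the same array, Hgf gained 1.23 on the log2 scale (standard error 0.091, limma adjusted p = 3.47e-06), from -1.95 ± 0.096 in UN to -0.73 ± 0.015 in DSS (SD, n = 3 arrays). Relative to Fgf7 it gained 0.51 (standard error 0.066, limma adjusted p = 0.000135) and relative to Fgf10 1.31 (standard error 0.14, limma adjusted p = 2.97e-05). Its gain on Fgf2 was 0.42 (limma adjusted p = 0.0146) and was no longer called without UN array 2 (-0.37 for Fgf2 relative to Hgf, limma adjusted p = 0.0503) or without DSS array 3 (-0.38, limma adjusted p = 0.0514).

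Co-treatment with DPG moved it further in the same direction. Fgf7 relative to Hgf was 1.35 ± 0.080 in UN and 0.85 ± 0.040 in DSS, and dropped to -2.22 ± 0.082 in DSS+DPG. The change from DSS was -3.07 on the log2 scale, an 8.38-fold gain of Hgf on Fgf7 (standard error 0.066, limma adjusted p = 4.81e-09). Hgf gained 7.96-fold on Fgf2 (2.99, standard error 0.13, limma adjusted p = 1.46e-07) and 4.91-fold on Fgf10 (2.30, standard error 0.14, limma adjusted p = 9.89e-07). On Igf1 its gain was smaller, 1.56-fold (0.64, standard error 0.091, limma adjusted p = 0.000243). Between the UN and DSS+DPG pools, the balance of Hgf over Fgf10 had shifted 12.2-fold (3.61, standard error 0.13, limma adjusted p = 6.79e-08), over Fgf7 11.9-fold, over Fgf2 10.7-fold and over Igf1 3.65-fold. With the workbook Ct these shifts would be smaller and, in arrays 1 and 2, would keep their direction without overlap, except that Hgf would lose ground to Igf1 between DSS and DSS+DPG in place of its 1.56-fold gain.

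**Figure D4:**
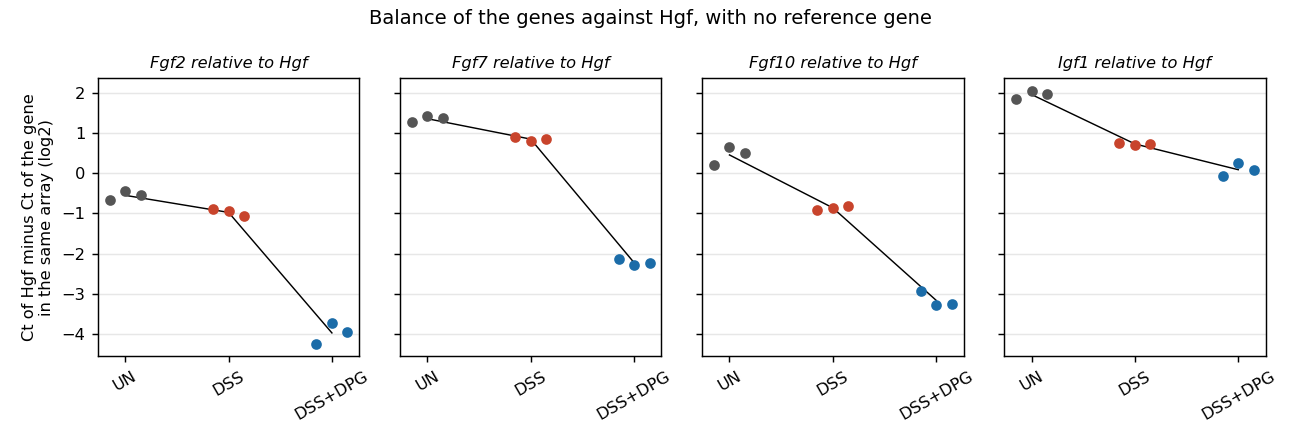
Ct of Hgf minus Ct of each other gene in the same array, on the log2 scale, by group; points are arrays 1 to 3 and the line joins the group means. A fall means that the gene lost ground to Hgf, and the steepest falls are those of Fgf2 and Fgf7 between DSS and DSS+DPG, to means of -3.97 and -2.22; the height of a panel does not compare the abundance of 2 genes.

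Igf1 kept neither to Hgf nor to the FGF genes. From DSS to DSS+DPG it gained 2.43 on Fgf7 (standard error 0.11, limma adjusted p = 2.33e-07), 2.35 on Fgf2 (standard error 0.067, limma adjusted p = 1.56e-08) and 1.66 on Fgf10 (standard error 0.17, limma adjusted p = 2.80e-05). With the workbook Ct the gains on Fgf7 and Fgf2 would be smaller, in the same direction and without overlap in arrays 1 and 2. With DSS alone, Igf1 lost ground to Fgf2 by 0.80 (limma adjusted p = 7.75e-06) and to Fgf7 by 0.72 (limma adjusted p = 0.000416), the latter with the opposite direction in the workbook Ct. Its change with DSS was not told apart from that of Fgf10, since the difference of -0.09 for Fgf10 relative to Igf1 had a 95% confidence interval from -0.47 to 0.30 (limma adjusted p = 0.634).

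Among the FGF genes, no difference between Fgf2 and Fgf7 was called in any of the 3 comparisons. Fgf2 relative to Fgf7 changed by 0.08 in DSS against UN (95% confidence interval -0.27 to 0.44, limma adjusted p = 0.615), by 0.07 in DSS+DPG against DSS (-0.28 to 0.43, limma adjusted p = 0.653) and by 0.16 in DSS+DPG against UN (-0.19 to 0.51, limma adjusted p = 0.350). The intervals still allow a change of about 0.5 on the log2 scale, and without DSS+DPG array 1 the latter differences were called, at 0.25 (limma adjusted p = 0.0358) and 0.33 (limma adjusted p = 0.0108). Fgf10 rose less than Fgf7 with DSS (-0.81, standard error 0.097, limma adjusted p = 7.80e-05) and fell less with DPG (0.77, standard error 0.097, limma adjusted p = 0.000113). Both differences use the same DSS arrays, and with the workbook Ct the arrays overlapped in both, while Fgf2 and Fgf7 then lay apart in both comparisons with DSS. In the deposited values, between UN and DSS+DPG, Fgf10 relative to Fgf7 differed by -0.04 (95% confidence interval -0.26 to 0.19, limma adjusted p = 0.727).

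To describe which panel genes ran most like each growth factor, the SD over the 9 arrays of the difference in Ct from that gene was taken, where a small SD means a near constant ratio. Fgf2 and Fgf7 were each other's nearest gene in the deposited Ct, with an SD of 0.18 cycles. Col3a1, a collagen chain of loose connective tissue made by fibroblasts, came next for both (0.26 for Fgf2 and 0.24 for Fgf7). With the workbook Ct, Fgf2 and Fgf7 lay apart in both comparisons with DSS. Col3a1 was also the nearest gene of Fgf10, at 0.24 cycles, followed by Fgf7 at 0.41. Igf1 ran closest to Mmp2, a gelatinase of stromal cells, with an SD of 0.045 cycles, and then to Itga4, the alpha 4 integrin chain, at 0.14.

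Hgf had no such near neighbour. Its nearest genes were Il2, a T cell cytokine measured at late cycles, and Tnf, at 0.53 and 0.55 cycles, and among the 83 other panel genes Igf1 was at place 11, Fgf10 at 64, Fgf2 at 68 and Fgf7 at 71 (1.68 cycles). All points share the 9 arrays of 3 pools, so the SD mostly reflects the 3 group means. The workbook Ct would move these means for Fgf2 and Fgf7 in DSS and for Hgf in DSS+DPG. The nearest genes were not computed with them.

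Marker genes of the cell types in the tissue moved as well, and their counts are read beside the panel, of which 61.9% rose and 29.8% fell in DSS against UN, 13.1% rose and 76.2% fell in DSS+DPG against DSS, and 22% rose and 69.5% fell in DSS+DPG against UN. Of 7 fibroblast genes, 6 rose and 1 fell in DSS against UN, from -0.87 for Col14a1 to 1.48 for Col3a1 (log2 fold change, median 0.49), and all 7 fell in DSS+DPG against DSS, from -3.55 for Col3a1 to -0.10 for Col14a1 (median -1.80). In DSS+DPG against UN, 6 of the 7 fell (median -1.20). With 7 genes these counts do not set the list apart from the panel. The mean minus delta Ct of this list was -3.52 to -3.45 in the UN arrays, -3.10 to -2.96 in DSS and -4.76 to -4.74 in DSS+DPG, without overlap. In pooled tissue RNA, fewer cells of a type and less RNA per cell cannot be told apart.

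Among the immune cells, some of which can also make Hgf or Igf1, all 4 genes of neutrophils and macrophages rose with DSS (median 2.97, beside 0.71 over the panel) and fell with DPG (median -2.70, beside -1.30), and in DSS+DPG against UN 2 rose and 2 fell (median 0.28). These genes were F13a1, Il1b, Mmp9 and Plaur. The study also found PLAUR protein in colon epithelial cell lines, so Plaur is not confined to these cells. All 4 lymphocyte genes (Cd40lg, Ifng, Il2 and Il4) rose with DSS (median 1.46), and with DPG 3 fell and 1 rose (median -0.90). In DSS+DPG against UN 2 of them rose, 1 fell and 1 was not called (median 1.685). The Ct of these 4 genes were late, 32.43 to 37.27 in UN and 31.09 to 38 in DSS+DPG, so some of their changes lie near the limit. Of 3 smooth muscle genes (Acta2, Actc1 and Tagln), all fell with DSS (median -1.49). With DPG 1 of the 3 rose and 2 fell (median -0.40), and all stood lower in DSS+DPG than in UN (median -1.90). The panel shares given above are the background of these counts of 3 or 4 genes. No marker was at the limit of 38 cycles in every array of a group. The part of any cell type in the changes of the growth factors was not tested.

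On the epithelial side, of 4 marker genes 1 rose, 2 fell and 1 was not called in DSS against UN, from -1.05 for Cdh1, the E-cadherin gene, to 0.45 for Itgb6, an integrin chain of injured epithelium. In DSS+DPG against DSS 2 rose, 1 fell and 1 was not called, from -0.94 for Itgb6 to 0.29 for Cdh1 (median 0.17). The mean minus delta Ct of the 4 markers was -3.65 to -3.53 in the UN arrays, -3.92 to -3.87 in DSS and -3.99 to -3.97 in DSS+DPG. The small step of this mean between DSS and DSS+DPG averages genes that moved in opposite directions. Itgb6 alone fell about as much as Hgf did in the deposited Ct (-0.94 and -0.95).

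The other growth factors of the panel, 12 genes that include ligands of epithelial, vascular and blood cells, did not move as one group. With DSS 4 rose, 6 fell and 2 were not called, or 33.3% and 50% beside 61.9% and 29.8% of the panel (median -0.45, beside 1.92 for the 5 stromal genes and 0.71 for the panel). The largest rises were those of Csf3, the granulocyte growth factor (7.98, standard error 0.40, limma adjusted p = 2.58e-07), and Tnf (3.69, standard error 0.064, limma adjusted p = 5.62e-10). Egf, the epidermal growth factor, fell by 1.42 on the log2 scale and Csf2 by 1.43. With DPG 4 of the 12 rose and 7 fell, or 33.3% and 58.3% beside 13.1% and 76.2% of the panel (median -0.67), with the largest rises in Csf2 (1.48) and Mif (1.34) and the largest falls in Csf3 (-4.98) and Ctgf, a growth factor of connective tissue (-2.65).

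Genes of the intracellular pathways on which such receptors act, 7 on the panel, were counted beside the ligands. In DSS against UN, 6 fell and 1 rose (median log2 fold change -0.89), where 29.8% of the panel fell and 61.9% rose. In DSS+DPG against DSS 2 rose, 3 fell and 2 were not called (median -0.01), and in DSS+DPG against UN 6 fell and 1 was not called (median -0.70), where 69.5% of the panel fell and 4 of the 5 growth factor genes did. These are transcript levels, and the activity of the pathways was not measured.

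The choice of reference shifts all 5 genes by the same amount in a comparison and leaves their order as it was. Over 11 references, Hgf in DSS against UN ranged from 0.99 to 2.91 on the log2 scale and Fgf10 from -0.33 to 1.59. In DSS+DPG against DSS, Fgf7 ranged from -5.22 to -2.24 and Hgf from -2.16 to 0.83. The ends of these ranges came from Gapdh alone, raw Ct and the panel median.

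**Figure D5:**
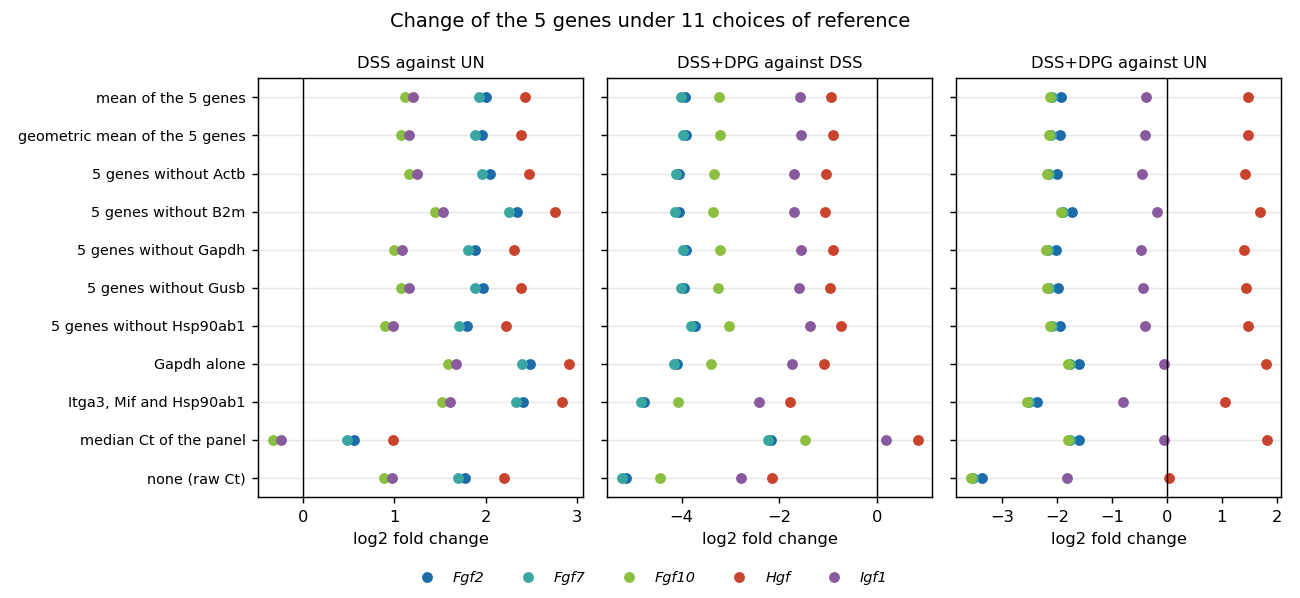
Log2 fold change of the 5 genes under 11 choices of reference (rows), in the 3 comparisons (panels), with 1 colour for each gene and the vertical line at 0. Fgf2, Fgf7 and Fgf10 lie left of 0 in every row of both comparisons with DSS+DPG, whereas Hgf and Igf1 cross 0 in DSS+DPG against DSS when the panel median is the reference.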

How the data were processed

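For all 9 PCR arrays the authors deposited raw Ct values per well, a log2 scale with no normalization, together with group averages from web software of the array maker. Per-group means, delta Ct, fold changes and p-values that the authors made from the same wells were not used. The deposited mean Ct was within 0.1 cycle of the raw Ct in 288 of 288 combinations of well and group. For the 5 genes the deposited delta Ct is exactly that against Itga3, Mif and Hsp90ab1 (their geometric mean), and not against the 5 reference genes that the methods name.

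Here wells with no Ct, or with one above 38, were set to 38, and delta Ct was taken against the arithmetic mean of the 5 named reference genes. For minus delta Ct of all panel genes, limma 3.58.1 (R 4.3.3) was fitted to 9 arrays in 3 groups, two-sided, with Benjamini-Hochberg adjustment over the 84, 84 and 82 panel genes that had a signal in the groups compared, and genes were called at an adjusted p under 0.05. Differences in Ct between all pairs of panel genes were fitted in the same way, without a reference. The method was tested on simulated data with known changes. The simulated arrays were independent draws, so this cannot show how the p-values behave where arrays repeat 1 pool. Exact permutation tests served for the reference and control wells. The 3 arrays of a group repeat 1 pool, and their number limits the precision. Plots were made in matplotlib 3.10.9 under Python 3.11.15.

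The 5 genes, the lists, the markers and the tests were chosen with earlier results of these data known. Genes named are the 5 members, the reference genes, the 2 panel genes nearest to each member by the SD of the difference in Ct, the 2 largest rises and falls among the other growth factors in both comparisons with DSS, and the highest and lowest fibroblast and epithelial marker in those comparisons. The genes of the immune and smooth muscle lists are named in full. Alternatives were 10 other references, limits of 35 and 40 cycles, only genes below 35 cycles, a fit of just 2 groups, a block for the replicate number, unadjusted p, and leaving out each array. Promoter windows came from RefSeq (GRCm38.p6), and the 5 array accessions were all found there. The protein products and the primers of the array were not analysed here.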

Additional observations from a re-analysis of the deposited data

How the results depend on the processing

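Of the alternatives fitted, only the reference changed a call of the 5 genes. Calls of their 10 pairs, which use no reference, changed only when an array was left out. The workbook Ct were not fitted, and with them some pair differences would change direction or overlap, as named above. With the panel median as reference, 3 of the 5 were called higher and 1 lower in DSS against UN, with Fgf10 at -0.33 and Igf1 at -0.24 on the log2 scale, and 2 higher and 3 lower in DSS+DPG against DSS, with Hgf at 0.83 and Igf1 at 0.19. The fall of Igf1 in DSS+DPG against UN was not called with the panel median (-0.055) or with Gapdh alone (-0.057), and with raw Ct none of the 5 was called higher there (0 genes, Hgf at 0.043 by limma, which called 1 with the reference genes). The cause was not tested. Limits of 35 and 40 cycles, the filter at 35 cycles, a fit of only the groups compared and unadjusted p changed no call. Same-numbered arrays of different groups correlated between -0.19 and 0.34 in their deviations over the panel, and differently numbered ones between -0.345 and 0.288. With 3 arrays in a group, these values cannot settle whether the numbers pair the arrays. With the replicate block 5 members were called in each comparison, Hgf in DSS+DPG against UN stayed at 1.48 and no call changed. Leaving out each array in turn changed no call of the 5 genes. Among pairs, Fgf2 relative to Hgf in DSS against UN ranged from -0.48 to -0.37, Fgf2 relative to Fgf7 from -0.08 to 0.25 in DSS+DPG against DSS and from 0.0033 to 0.33 in DSS+DPG against UN, and in the latter comparison Fgf10 relative to Fgf2 ranged from -0.44 to -0.013 and Fgf10 relative to Fgf7 from -0.12 to 0.028. Since arrays repeat 1 pool, no setting measures the spread between mice, and the late Ct of Fgf2 in DSS+DPG, 32.59 to 32.88, was still well under the limit.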

Other observations

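In most wells the Ct of array 3 lay between those of arrays 1 and 2 of the same group. Over the panel genes this held for 187 of 245 combinations of gene and group with 3 Ct values, while array 1 lay between the others in 25, array 2 in 19, and 14 held a tie. For the 5 growth factor genes array 3 lay between in 14 of 15 combinations, array 1 in 1 and array 2 in 0. How the third array of each group was run was not examined here. The supplementary workbook described above holds arrays 1 and 2 only. The SD of the arrays, and each p-value that rests on it, carries this ordering. If array 3 was not a separate run, the SDs and standard errors given here would be too small and the p-values too low. This was not tested.

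The deposited delta Ct of the 5 genes differed by up to 2.25 cycles from that computed with the 5 reference genes, while it matched the reference of Itga3, Mif and Hsp90ab1 exactly. Mif is itself a growth factor gene of the panel that rose with DPG in the fit reported here (log2 fold change 1.34, standard error 0.24, limma adjusted p = 0.00097).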
